A study of Homo sapiens with 16 samples.

Results

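The knockdown lines shAjuba1 and shAjuba2 were compared with each other, to describe which genes and functions part 2 lines in which the same gene was targeted by different shRNAs. The samples were chosen by their labels, which give 3 samples to shAjuba1 and 3 to shAjuba2, 6 of the 16 samples of the series. All lines were made from SW480, an established line of a human colon adenocarcinoma. shAjuba1 carried a lentiviral shRNA against the coding region of AJUBA, and shAjuba2 carried one against a non-coding region of the same transcript. Cells were selected with puromycin at 1.5 µg/mL to give stable lines, and the labels give passages 10 to 18 for every sample. The other 4 lines served only to show on which side each knockdown line lay. They were Parental (unmodified, n = 2), shScrambled (a lentiviral shRNA of random sequence, n = 2), Control (the overexpression construct with the Ajuba sequence excised, n = 3) and Ajuba OE (lentiviral overexpression of Ajuba, n = 3). There was 1 line for each shRNA, so differences between the shRNAs and differences between the lines as such cannot be told apart. The study calls its replicates technical replicates, and p-values then measure the spread between samples of a line.

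Ajuba is a LIM domain scaffold protein that is found at adherens junctions and shuttles to the nucleus. It binds the LATS kinases of the Hippo pathway, which restrain the coactivators YAP and TAZ, and it is a corepressor of Snail factors. A small hairpin RNA is cut to a short RNA that guides the silencing machinery to matching transcripts.

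Total counts ranged from 30132396 to 48591820 read pairs on genes in the 6 samples. Replicate 2 of shAjuba2 stood apart from the other samples of its line. Its distance to them in log2 CPM (root mean square over genes) was 0.467 and 0.541, against 0.347 between the other two, whereas the 3 shAjuba1 samples lay 0.319 to 0.423 apart. The summed level of 79 cytosolic ribosomal protein genes was 13690 CPM in that sample, and 26660 and 32170 CPM in replicates 1 and 3 of shAjuba2. Replicate 2 was also the lowest of its line in Control (17960 CPM, against 33550 and 30700 CPM) and Ajuba OE (24330 CPM, against 47930 and 35850 CPM). The 13 mitochondrially encoded mRNAs were highest in the same replicate of these lines, with 125500 CPM in shAjuba2, 113600 CPM in Control and 120500 CPM in Ajuba OE, and 67970 to 83000 CPM in the others of these lines. In shAjuba1 no replicate stood apart in this way, with 30050 to 32290 CPM and 97020 to 106300 CPM. Counts without it are given beside the results they move. The 12 markers of colon epithelial lines summed to 5316, 5105 and 5254 CPM in shAjuba1 and to 4505, 2979 and 5394 CPM in shAjuba2. The 11 leukocyte markers summed to 6.30 to 7.36 CPM in shAjuba1 and 3.66 to 4.61 CPM in shAjuba2, and 8 of them were under 1 CPM in all 6 samples, among which CD2 and MS4A1 were at 0. The 8 endothelial markers summed to 2.83 to 4.55 CPM, with 6 of them under 1 CPM and KDR at 0. The 10 fibroblast markers summed to 18.4 to 22.5 CPM in shAjuba1 and 24.0 to 37.5 CPM in shAjuba2, with 8 under 1 CPM and POSTN at 0.

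AJUBA, on the minus strand of chromosome 14 (hg38, chr14:22971177-22982551), was measured first because both shRNAs target it. CPM, used for every level, is the count per 1000000 counts of the sample, scaled with TMM factors over all 16 samples. AJUBA was at 49.2, 47 and 52.8 CPM in shAjuba1 and 57.1, 68.1 and 54.6 CPM in shAjuba2. The samples of the lines did not overlap, and both lines lay below all 10 samples of the other lines (81.01 to 595 CPM). The difference between the lines did not pass the threshold (log2 fold change -0.26 ± 0.12 (SE), adjusted p = 0.141), and in 13 alternative fits the adjusted p was 0.0655 to 0.360. All fold changes are shAjuba1 over shAjuba2, so a positive value is higher in shAjuba1. The relatives LIMD1 (log2 fold change -0.05, adjusted p = 0.818) and WTIP (log2 fold change 0.38, adjusted p = 0.0948) did not pass either.

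Although AJUBA itself did not part the lines at the threshold, many other genes did. Of 21600 genes tested, 4232 (19.6%) were differentially expressed genes (DEG), with a Benjamini-Hochberg adjusted p under 0.05 in edgeR's quasi-likelihood test. They were 2045 genes (9.47%) higher and 2187 genes (10.1%) lower in shAjuba1. Those that also differed by 1 or more on the log2 scale were 1590 (7.36%), of which 789 were higher and 801 lower. The count rested on single samples. Without replicate 2 of shAjuba2 it was 5961 of 22142 genes (26.9%). Without replicates 1, 2 and 3 of shAjuba1 it was 2177 of 22149, 2415 of 22286 and 2428 of 22305. It was 2600 of 22063 without replicate 1 of shAjuba2 and 4765 of 22149 without replicate 3 of shAjuba2. Counts of DEG in the gene lists below for these fits are to be read beside these totals. No DEG shared with any of the 13 alternative fits changed its direction.

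**Figure D1:**
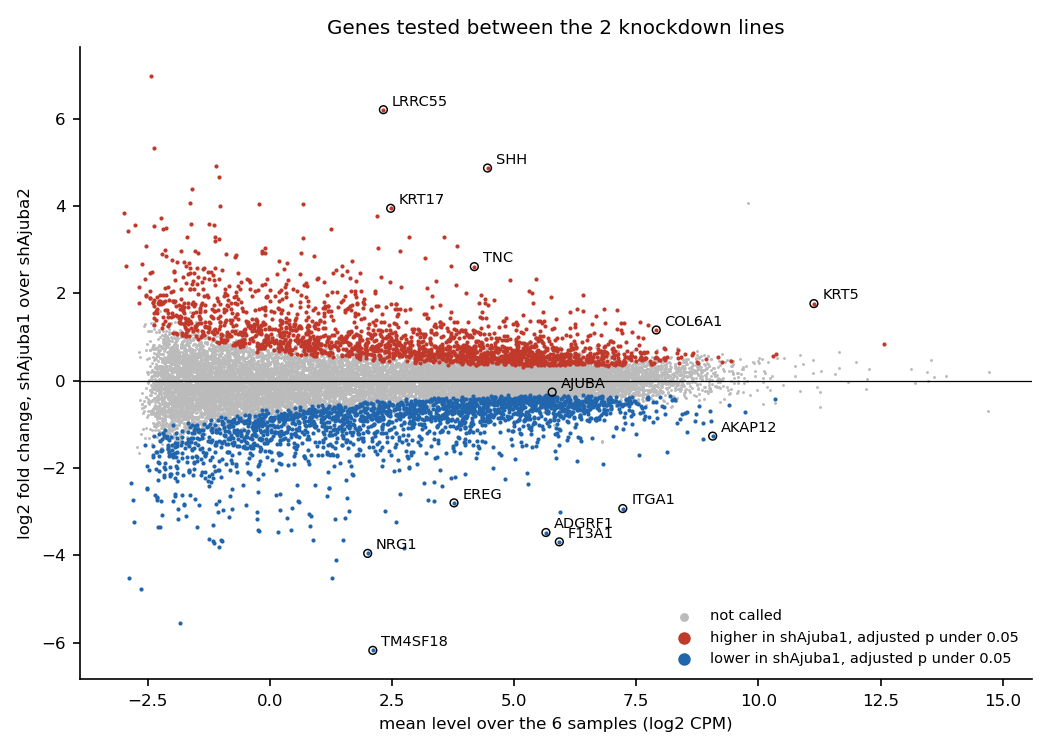
Log2 fold change (shAjuba1 over shAjuba2, vertical axis) against the mean level in log2 CPM (horizontal axis) of the 21600 genes tested. Each point is 1 gene, red and blue points are the 2045 higher and 2187 lower DEG, grey points are the others, and circles mark named genes. KRT5 was the most abundant of the named genes, and AJUBA lay close to 0.

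The protein-coding genes held 3177 DEG among 14567 tested (21.8%) and the lncRNA genes 705 among 4216 (16.7%). DEG differed in the base composition of their longest transcript and in their length, taken as the summed length of all exons of the gene. Among protein-coding genes, the quintile with the lowest GC content held 146 higher and 434 lower DEG, the middle quintile 407 and 291, and the highest 347 and 236. The quintile with the greatest exon length held 274 higher and 451 lower DEG, and the shortest quintile 345 and 211. The part of base composition and length in the gene groups described here was not tested. The strand setting of the counting is not given in the sources used here, so the values of genes that overlap a neighbour are uncertain. Among the genes of largest difference in each list these were TCF7, MARVELD3, SREBF1, TP53INP1, DLL1, VIL1, LRIG1, CEACAM1, SEMA3F, HOXA11 and MMP9 with a neighbour on the other strand, and MOB1B, HOXB4, HOXD10 and HOXD11 with one on the same strand.

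For each DEG it was counted whether all 3 samples of a knockdown line lay outside the range of the 10 samples of the other 4 lines. Among the 2045 higher DEG, shAjuba1 alone lay above that range for 770 (37.7%) and shAjuba2 alone lay below it for 348 (17.0%). Among the 2187 lower DEG, shAjuba1 alone lay below for 779 (35.6%) and shAjuba2 alone above for 439 (20.1%). Both lines lay outside on opposite sides for 63 higher and 53 lower DEG. Over all genes tested, shAjuba1 alone lay above for 6.89% and below for 6.85%, and shAjuba2 alone lay above for 4.13% and below for 3.05%.

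Some of the genes of largest fold change that were higher in shAjuba1 are given first. LRRC55, an auxiliary subunit of BK potassium channels, was at 10.3, 10.3 and 9.02 CPM in shAjuba1 and 0.163, 0.134 and 0.0984 CPM in shAjuba2 (log2 fold change 6.21 ± 0.22 (SE), adjusted p = 8.10e-07). KCNMA1, the pore-forming subunit of the same channels, was at 14.7, 14.4 and 18.03 CPM in shAjuba1 and 2.299, 2.23 and 2.22 CPM in shAjuba2 (log2 fold change 2.81). Both channel genes thus stood above their shAjuba2 levels in every shAjuba1 sample. SHH, the ligand Sonic hedgehog, was at 42.6, 41.6 and 42.8 CPM in shAjuba1 and 1.75, 1.41 and 1.201 CPM in shAjuba2 (log2 fold change 4.87 ± 0.16 (SE), adjusted p = 6.42e-07). The 10 samples of the other lines had 2.06 to 23.2 CPM of SHH, so the knockdown lines lay on opposite sides of them. KCNA2, a voltage-gated potassium channel, had the same placement, at 8.05, 7.95 and 9.62 CPM in shAjuba1 and 0.671, 0.693 and 0.512 CPM in shAjuba2 (log2 fold change 3.78). The matrix protease gene MMP9 was at 4.24, 3.76 and 5.12 CPM in shAjuba1 and 0.224, 0.447 and 0.512 CPM in shAjuba2 (log2 fold change 3.47), and CX3CL1, the membrane-bound chemokine fractalkine, at 12.6, 12.7 and 13.7 CPM in shAjuba1 and 1.404, 1.21 and 1.36 CPM in shAjuba2 (log2 fold change 3.30). SFRP5, a secreted inhibitor of Wnt ligands, was at 21.9, 21.1 and 24.1 CPM in shAjuba1 and 4.17, 2.35 and 4.27 CPM in shAjuba2, and also stood on opposite sides of the other lines (log2 fold change 2.64 ± 0.21 (SE), adjusted p = 7.49e-05).

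Among the genes that were lower in shAjuba1, TM4SF18, a membrane protein of the tetraspanin-like L6 family, was nearly absent from that line. It was at 0.0832, 0.231 and 0.0545 CPM in shAjuba1 and 6.98, 7.89 and 10.6 CPM in shAjuba2 (log2 fold change -6.18 ± 0.35 (SE), adjusted p = 1.40e-05), with as few as 2 reads in 1 shAjuba1 sample. F13A1, the A chain of coagulation factor XIII, was at 9.15, 8.15 and 8.69 CPM in shAjuba1 and 121, 106 and 111 CPM in shAjuba2 (log2 fold change -3.69 ± 0.12 (SE), adjusted p = 6.42e-07). ADGRF1, an adhesion G protein-coupled receptor, was at 7.51, 9.43 and 7.76 CPM in shAjuba1 and 78.8, 104 and 93.7 CPM in shAjuba2 (log2 fold change -3.48). For both genes shAjuba2 lay above all samples of the other lines, and shAjuba1 lay within their range. KCNQ5, another potassium channel gene, was at 0.333, 0.264 and 0.218 CPM in shAjuba1 and 5.23, 4.76 and 4.53 CPM in shAjuba2 (log2 fold change -4.11). FRZB, a secreted Wnt antagonist, was at 0.416, 0.429 and 0.409 CPM in shAjuba1 and 6.37, 3.11 and 6.26 CPM in shAjuba2 (log2 fold change -3.64), and SERPINB2, an inhibitor of plasminogen activators, at 0.249, 0.264 and 0.2996 CPM in shAjuba1 and 2.08, 3.71 and 4.45 CPM in shAjuba2 (log2 fold change -3.64). HHIP, a cell surface protein that binds and restrains hedgehog ligands, was at 0.353, 0.594 and 0.599 CPM in shAjuba1 and 4.86, 4.78 and 3.995 CPM in shAjuba2 (log2 fold change -3.16 ± 0.23 (SE), adjusted p = 3.62e-05).

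Differences in CPM were greatest in abundant genes of moderate fold change. KRT5, a basal keratin, was at 3318, 3238 and 3863 CPM in shAjuba1 and 1225, 672 and 1177 CPM in shAjuba2 (log2 fold change 1.77 ± 0.23 (SE), adjusted p = 0.000818), and the shAjuba2 samples lay below all samples of the other lines (1573 to 3996 CPM). SLC2A3, the glucose transporter GLUT3, was at 1535, 1556 and 1392 CPM in shAjuba1 and 1078, 939 and 1052 CPM in shAjuba2 (log2 fold change 0.56). AKAP12, a scaffold of protein kinase A, was at 311, 319 and 307 CPM in shAjuba1 and 629.8, 779 and 862 CPM in shAjuba2 (log2 fold change -1.27), and DOCK9, an activator of the GTPase CDC42, at 257, 259 and 267 CPM in shAjuba1 and 635, 717 and 646 CPM in shAjuba2 (log2 fold change -1.34). AKAP12 and DOCK9 were lower in all 3 shAjuba1 samples than in any shAjuba2 sample. TMSB4X, which binds actin monomers, was at 318, 329 and 304 CPM in shAjuba1 and 734, 362 and 760.0 CPM in shAjuba2, with replicate 2 of shAjuba2 close to shAjuba1 (log2 fold change -0.96, adjusted p = 0.0239). The threshold was missed by SLC2A3 in 4 of 13 and TMSB4X in 4 of 13 alternative fits.

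**Figure D2:**
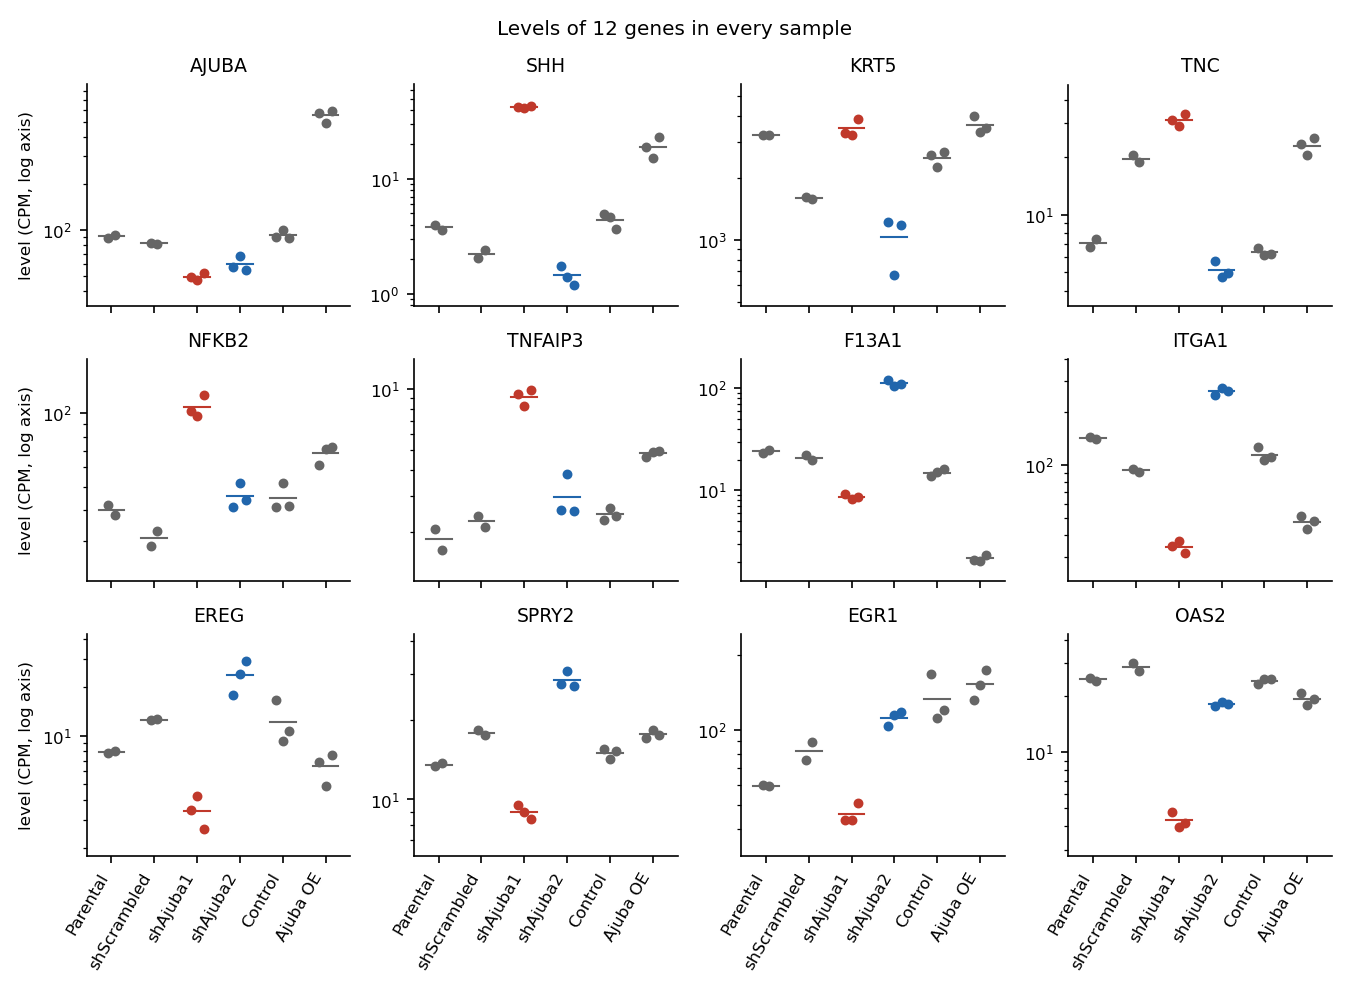
Levels of 12 genes (CPM, log axis) in every sample of the 6 lines. Each point is 1 sample and each line the mean of its group, with shAjuba1 in red, shAjuba2 in blue and the other lines in grey. SHH and TNC were above all other samples in shAjuba1 and below them in shAjuba2, and EREG, ITGA1 and SPRY2 the reverse.

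Genes were next grouped by function in 44 lists. Over all genes tested 19.6% were DEG, 9.47% higher and 10.1% lower, and the count of each list is to be read beside these shares. NF-kB is a family of transcription factors that is held in the cytoplasm by IkB proteins, and its targets include chemokines, cytokines and its own inhibitors. Of 22 members tested of the list of NF-kB targets and chemokines, 14 were higher and 1 was lower in shAjuba1. This share was 68.2%, against 19.6% over all genes tested (9.47% higher). The median log2 fold change was 0.87, beside -0.0032 over all genes tested. Members such as CCL2 and TNF could pass the filter on low counts through shAjuba1 alone, where they were higher. The counts and the median may thus depend in part on the filter. Higher DEG were 11 to 14 in the alternative fits. In 7 of the 14 shAjuba1 alone lay above all samples of the other lines, and in 2 shAjuba2 alone lay below them. Sequences are shown for the 7 DEG of the list whose promoters hold a match to the consensus site of NF-kB, the factor the list is named for. Of these 7, 6 were higher in shAjuba1, and CXCL3 was the lower DEG of the list. In the RefSeq promoters (GRCh38.p14, 250 bases before to 50 after the start of the gene) a match on either strand was found for 7 of 11 DEG of the list that had a promoter there and for 10 of 18 tested members. Counted in the same way, 3619 of 27305 genes with a promoter there (13.3%) and 2218 of the 13035 genes tested that have one (17.0%) had one. By promoter it was found in 3956 of 35116 (11.3%), and such a match is a description of these letters only. The list was made of NF-kB targets, so its share of matches says nothing about the difference between the lines. A single match is shown for each gene, and some of these promoters hold more. Each stretch of 30 bases runs 5′ to 3′ on the strand of the gene, with the 10 matching bases in capitals. They lie at chr10:102395674-102395703 (NFKB2, plus strand), chr6:137867182-137867211 (TNFAIP3, plus), chr11:102317275-102317304 (BIRC3, plus), chr14:35404811-35404840 (NFKBIA, minus), chr6:31582492-31582521 (LTB, minus), chr16:3065294-3065323 (IL32, plus) and chr4:74038749-74038778 (CXCL3, minus).
NFKB2: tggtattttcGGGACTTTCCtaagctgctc
TNFAIP3: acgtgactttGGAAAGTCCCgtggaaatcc
BIRC3: tttgggtcatGGAAATCCCCgagtgggttt
NFKBIA: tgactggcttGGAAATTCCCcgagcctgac
LTB: aggggtgtgcGGAAAGTCCCagccaggtgt
IL32: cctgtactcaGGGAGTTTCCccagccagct
CXCL3: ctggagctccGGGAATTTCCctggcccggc

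Subunits of the non-canonical branch were higher in shAjuba1. NFKB2, which encodes p100 and p52, was at 102, 97.7 and 119 CPM in shAjuba1 and 41.2, 51.9 and 43.9 CPM in shAjuba2 (log2 fold change 1.23 ± 0.13 (SE), adjusted p = 0.000219), and RELB, its partner, at 22.5, 18.3 and 22.9 CPM in shAjuba1 and 9.34, 7.999 and 11.7 CPM in shAjuba2 (log2 fold change 1.14). NFKB1, the p105 and p50 subunit, was at 46.1, 45.5 and 51.2 CPM in shAjuba1 and 43.9, 39.8 and 48.5 CPM in shAjuba2 and did not pass (adjusted p = 0.510). Feedback inhibitors are given next. TNFAIP3, the ubiquitin-editing enzyme A20, was at 9.399, 8.24 and 9.83 CPM in shAjuba1 and 2.54, 3.84 and 2.52 CPM in shAjuba2 (log2 fold change 1.64 ± 0.18 (SE), adjusted p = 0.000377), and NFKBIA, which encodes IkB-alpha, at 19.9, 19.3 and 23.4 CPM in shAjuba1 and 11.7, 9.99 and 16 CPM in shAjuba2 (log2 fold change 0.74, adjusted p = 0.0181). BIRC3, an inhibitor of apoptosis, was at 42.05, 44.4 and 31.3 CPM in shAjuba1 and 12.8, 17 and 19.8 CPM in shAjuba2 (log2 fold change 1.26). For BIRC3 the other lines had 15.2 to 73.9 CPM, and neither knockdown line lay outside their range.

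Several cytokine and chemokine genes of the list were low in level but well separated. CSF1, the macrophage growth factor, was at 5.39, 5.24 and 6.13 CPM in shAjuba1 and 1.55, 1.12 and 0.787 CPM in shAjuba2 (log2 fold change 2.29 ± 0.23 (SE), adjusted p = 0.000194), and IL32, a cytokine, at 4.68, 4.65 and 6.32 CPM in shAjuba1 and 0.793, 0.849 and 1.42 CPM in shAjuba2 (log2 fold change 2.35). TNF was at 0.832, 1.02 and 1.01 CPM in shAjuba1 and 0.142, 0.112 and 0.118 CPM in shAjuba2 (log2 fold change 2.91), and LTB, lymphotoxin beta, at 3.33, 2.77 and 3.895 CPM in shAjuba1 and 0.956, 0.7596 and 1.16 CPM in shAjuba2 (log2 fold change 1.80). For CCL2 there were 47, 29 and 29 reads in the shAjuba1 samples and 2, 0 and 2 in shAjuba2. All 5 of these genes were higher in every shAjuba1 sample than in any shAjuba2 sample. CXCL3 was the 1 lower DEG, at 0.478, 0.198 and 0.409 CPM in shAjuba1 and 0.631, 1.07 and 0.807 CPM in shAjuba2 (adjusted p = 0.0389). The chemokine CXCL8 was at 0.374, 0.363 and 0.272 CPM in shAjuba1 and 0.448, 0.491 and 0.394 CPM in shAjuba2 (adjusted p = 0.366), and CXCL1 and CXCL2 did not pass either (adjusted p = 0.237 and 0.684). Adjusted p rose past the threshold for NFKBIA in 3 of 13 and CXCL3 in 6 of 12 alternative fits.

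The list of the EGFR family and its ligands held 4 lower and 3 higher DEG among 13 tested genes (median log2 fold change -0.03). EGFR and its relatives are receptor tyrosine kinases that signal through RAS and ERK. The receptors did not pass: EGFR was at 159, 156 and 155 CPM in shAjuba1 and 156, 167 and 162 CPM in shAjuba2 (adjusted p = 0.837), and ERBB2 and ERBB3 had adjusted p = 0.892 and 0.0654. The ligands moved in both directions. NRG1, a ligand of ERBB3 and ERBB4, was at 0.499, 0.627 and 0.327 CPM in shAjuba1 and 7.67, 6.301 and 8.56 CPM in shAjuba2 (log2 fold change -3.96 ± 0.24 (SE), adjusted p = 1.73e-05). EREG, the ligand epiregulin, was at 3.43, 4.19 and 2.62 CPM in shAjuba1 and 17.96, 24.2 and 29.3 CPM in shAjuba2 (log2 fold change -2.80 ± 0.22 (SE), adjusted p = 7.39e-05), with the lines on opposite sides of the other 10 samples (4.86 to 16.6 CPM). AREG, amphiregulin, was at 0.894, 1.48 and 1.09 CPM in shAjuba1 and 2.97, 3.35 and 4.68 CPM in shAjuba2 (log2 fold change -1.68), and BTC, betacellulin, at 0.645, 0.759 and 0.436 CPM in shAjuba1 and 1.22, 1.05 and 1.397 CPM in shAjuba2 (log2 fold change -0.996). These ligands were lower in every shAjuba1 sample. TGFA, another EGFR ligand, was the reverse, at 46.2, 48.8 and 40.7 CPM in shAjuba1 and 23.01, 19.6 and 25.1 CPM in shAjuba2 (log2 fold change 1.01 ± 0.13 (SE), adjusted p = 0.000917). LRIG1 and ERRFI1, which restrain EGFR, were also higher in shAjuba1 (log2 fold changes 0.71 and 0.58), and for TGFA, LRIG1 and ERRFI1 alike it was shAjuba2 that lay below all other lines.

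Of 19 tested in the ERK output list, 7 were lower and 1 was higher (median log2 fold change -0.06), with 6 to 8 lower and 1 to 4 higher DEG in the alternative fits. Without replicate 2 of shAjuba2, 8 were lower and 4 higher. SPRY2, a feedback inhibitor of receptor signalling, was at 9.54, 8.97 and 8.44 CPM in shAjuba1 and 27.5, 30.8 and 27.2 CPM in shAjuba2 (log2 fold change -1.65 ± 0.12 (SE), adjusted p = 3.62e-05). ETV1, an ETS transcription factor, was at 9.46, 10.4 and 9.07 CPM in shAjuba1 and 53.1, 39.03 and 46.9 CPM in shAjuba2 (log2 fold change -2.26 ± 0.15 (SE), adjusted p = 2.44e-05). EGR1, an immediate early transcription factor, was at 43.3, 43.2 and 50.8 CPM in shAjuba1 and 103, 115 and 118 CPM in shAjuba2 (log2 fold change -1.28), and PHLDA1 at 213, 222 and 218 CPM in shAjuba1 and 421, 406 and 464 CPM in shAjuba2 (log2 fold change -0.98). For SPRY2 and PHLDA1 the 2 lines lay on opposite sides of the other lines. SPRED1 and SPRY1, further inhibitors of the pathway, were lower in shAjuba1 (log2 fold changes -0.90 and -0.80), as was the receptor gene EPHA4 (-0.85). The phosphatase genes DUSP4 and DUSP6 were at 75.9, 73.5 and 79.4 CPM in shAjuba1 and 69.2, 71.7 and 72.6 CPM in shAjuba2, and at 196, 191 and 180.2 CPM in shAjuba1 and 203, 213 and 208 CPM in shAjuba2, with adjusted p = 0.474 and 0.432. MYC was the 1 higher DEG, at 190.1, 186 and 186 CPM in shAjuba1 and 122, 134 and 134 CPM in shAjuba2 (log2 fold change 0.53). In the list of AP-1 and immediate early genes, 6 of 21 were lower, among them FOS, FOSB and JUNB (log2 fold changes -0.66, -1.17 and -0.79), and 2 were higher, EGR3 (0.79) and ATF3 (1.000). Of these DEG, the threshold was not reached by SPRY1 in 3 of 13, JUNB in 3 of 13, ATF3 in 3 of 13 and BTC in 4 of 13 alternative fits.

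Keratins are the intermediate filaments of epithelia, in pairs of basal or simple epithelial types. Of 15 tested in the list of keratins and vimentin, 5 were higher and 1 was lower in shAjuba1, with a median log2 fold change of 0.44. KRT17, a keratin of basal and wounded epithelium, was at 10.2, 9.96 and 11 CPM in shAjuba1 and 0.753, 0.514 and 0.748 CPM in shAjuba2 (log2 fold change 3.95 ± 0.18 (SE), adjusted p = 4.27e-06). KRT81 and KRT86, hair keratins, were higher by 1.37 and 1.68 on the log2 scale, and the mucosal keratin KRT4 by 1.91. KRT13, the usual partner of KRT4, was at 34.9, 34.3 and 45.7 CPM in shAjuba1 and 66.7, 61.98 and 63.9 CPM in shAjuba2 (log2 fold change -0.74 ± 0.13 (SE), adjusted p = 0.00405), and both lines lay below all other lines. The simple keratins KRT8 and KRT18 did not pass (adjusted p = 0.552 and 0.246), nor did vimentin (298, 263 and 304 CPM in shAjuba1 and 251, 224 and 347 CPM in shAjuba2, adjusted p = 0.771).

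**Figure D3:**
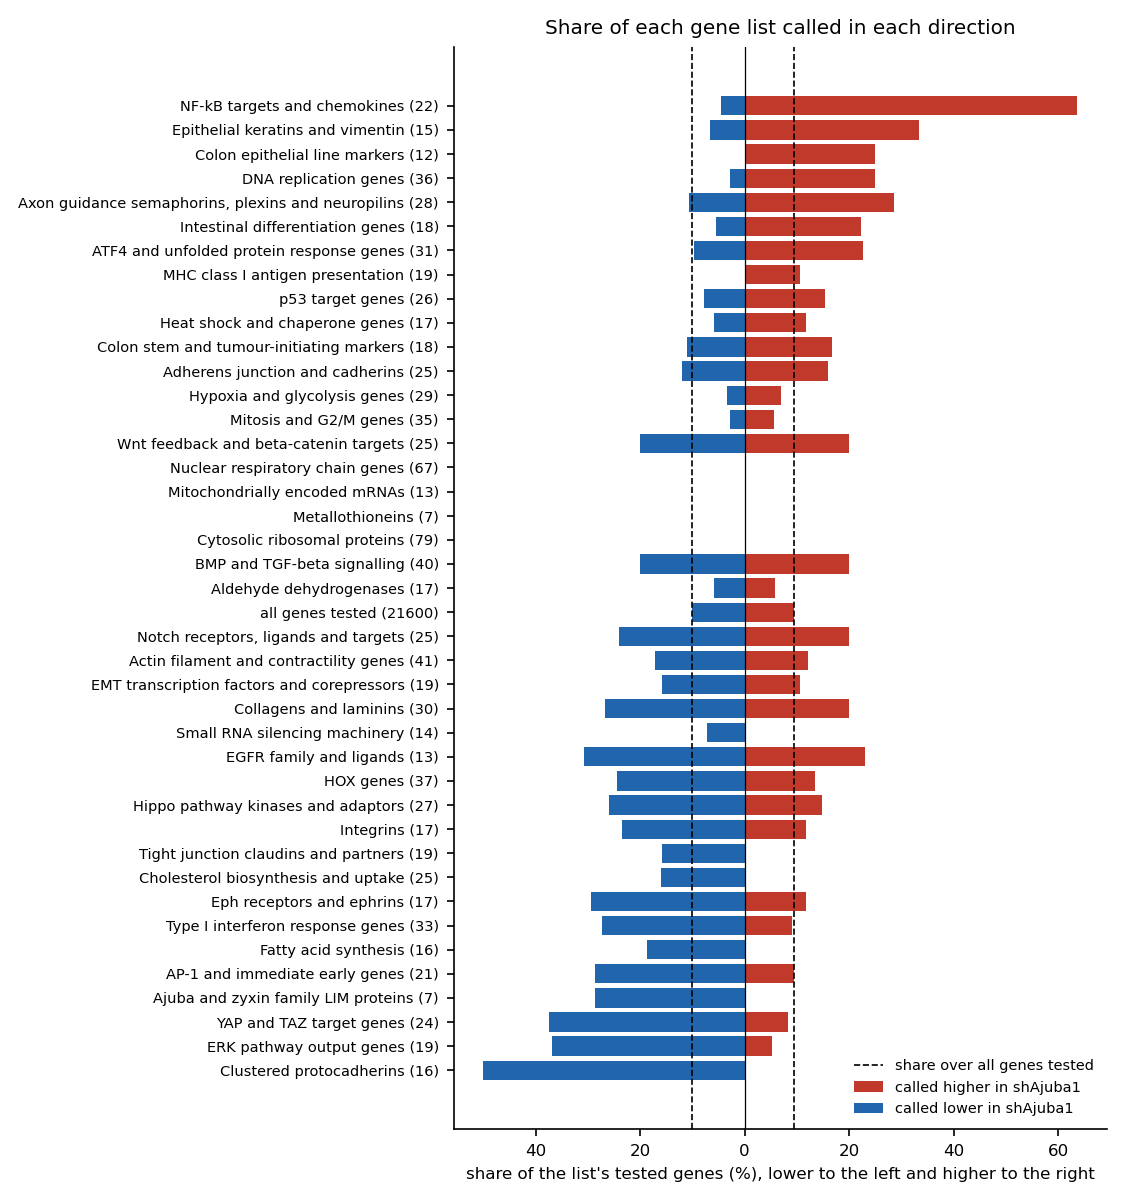
Share of the tested genes of each list that were DEG in each direction (horizontal axis, percent), for lists with at least 7 tested genes, whose number stands in brackets. Red bars to the right are genes higher in shAjuba1, blue bars to the left are genes lower, and dashed lines are the shares over all genes tested (9.47% and 10.1%). NF-kB targets had 14 of 22 higher, and clustered protocadherins 8 of 16 lower.

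Adherens junction genes moved in both directions. E-cadherin (CDH1), which holds adherens junctions together, was at 12.3, 13.4 and 14.6 CPM in shAjuba1 and 6.69, 3.89 and 4.45 CPM in shAjuba2 (log2 fold change 1.43 ± 0.20 (SE), adjusted p = 0.00124). The shAjuba2 samples lay below all samples of the other lines for CDH1 (7.78 to 38.03 CPM). NECTIN1, another junction receptor, was higher in shAjuba1 (0.89), and the plakoglobin gene JUP was lower, at 45.5, 40.7 and 54.3 CPM in shAjuba1 and 95.9, 74.7 and 95.3 CPM in shAjuba2 (log2 fold change -0.91). In all, 4 of 25 adherens junction genes and cadherins were higher and 3 were lower, 28.0% against 19.6% over all genes tested. Adherens junction DEG numbered 4 without replicate 1 of shAjuba1. Of 19 tight junction genes 3 were lower: CLDN1 (-0.88), MARVELD3 (-0.62) and CXADR (-0.61), with a median log2 fold change of 0.11 in the list. This share of 15.8% stands beside 19.6% DEG and 10.1% lower over all genes tested. Tight junction DEG numbered 1 without replicate 2 of shAjuba1, 1 without replicate 3 of shAjuba1 and 7 without replicate 2 of shAjuba2. SNAI1, the gene of the repressor Snail, was at 3.16, 2.41 and 2.64 CPM in shAjuba1 and 1.61, 1.79 and 1.99 CPM in shAjuba2 (log2 fold change 0.62, adjusted p = 0.0357). CDH1 and SNAI1 were thus both higher in shAjuba1. ESRP1, an epithelial splicing factor, was at 7.76, 6.86 and 7.41 CPM in shAjuba1 and 14.8, 11.8 and 13.4 CPM in shAjuba2 (log2 fold change -0.85), and both lines lay below the other lines (26.9 to 67.2 CPM). Of 12 colon epithelial markers, CDH1, VIL1 and ELF3 were higher in shAjuba1 (log2 fold changes 1.43, 0.99 and 0.91) and 9 did not pass. Of 45 intestinal differentiation genes 18 passed the filter on low counts. Of these 4 were higher, among them MUC2 (1.79) and CEACAM1 (1.61), and ANPEP was lower (-0.71). This was 27.8%, against 19.6% over all genes tested. Calls were lost for MARVELD3 in 6 of 13, CXADR in 6 of 13, SNAI1 in 6 of 13 and ANPEP in 6 of 13 alternative fits.

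Matrix genes moved in both directions. Of 30 collagens and laminins, with fibronectin and tenascin, 6 were higher and 8 were lower in shAjuba1 (median log2 fold change 0.05). Matrix DEG numbered 9 without replicate 2 of shAjuba1 and 9 without replicate 3 of shAjuba1. The basement membrane collagens COL4A3 and COL4A4, which lie head to head on chromosome 2, were both lower. COL4A1 was lower as well (-0.68), whereas COL4A2 did not pass (log2 fold change 0.13, adjusted p = 0.369). COL4A3 was at 1.04, 1.19 and 1.199 CPM in shAjuba1 and 11.4, 13.3 and 7.89 CPM in shAjuba2 (log2 fold change -3.25 ± 0.22 (SE), adjusted p = 2.96e-05) and COL4A4 at 1.14, 0.923 and 1.33 CPM in shAjuba1 and 9.64, 10.1 and 7.499 CPM in shAjuba2 (log2 fold change -2.98). FN1, fibronectin, was at 136, 136 and 151 CPM in shAjuba1 and 279, 206 and 227 CPM in shAjuba2 (log2 fold change -0.74), and the laminin gene LAMB1 was lower too (log2 fold change -0.58). The collagen VI genes COL6A1 and COL6A2 were higher: COL6A1 was at 317, 301 and 375 CPM in shAjuba1 and 150.3, 172 and 125 CPM in shAjuba2 (log2 fold change 1.16) and COL6A2 had a log2 fold change of 0.90. TNC, the matrix protein tenascin-C, was at 31.2, 28.9 and 33.5 CPM in shAjuba1 and 5.72, 4.74 and 4.92 CPM in shAjuba2 (log2 fold change 2.61 ± 0.13 (SE), adjusted p = 7.07e-06), above all other lines in shAjuba1 and below them in shAjuba2.

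Among 17 integrins, which bind this matrix, 4 were lower and 2 were higher. Integrin DEG numbered 2 without replicate 1 of shAjuba1, 3 without replicate 2 of shAjuba1, 2 without replicate 3 of shAjuba1, 2 without replicate 1 of shAjuba2 and 3 without replicate 3 of shAjuba2. ITGA1, the alpha 1 subunit that binds collagens, was at 34.5, 37.2 and 31.7 CPM in shAjuba1 and 249.7, 277 and 266 CPM in shAjuba2 (log2 fold change -2.93 ± 0.12 (SE), adjusted p = 2.63e-06), on opposite sides of the other lines (43.6 to 144 CPM). PELO lies within ITGA1 on the same strand with 24.6% of its count. ITGA5, the fibronectin receptor subunit, was at 29.4, 31.7 and 33.6 CPM in shAjuba1 and 52.5, 54.9 and 45.05 CPM in shAjuba2 (log2 fold change -0.68). ITGA3, a laminin receptor subunit, was higher in shAjuba1, at 567, 523 and 619 CPM in shAjuba1 and 406, 421 and 393 CPM in shAjuba2 (log2 fold change 0.49). Of 41 actin and contractility genes 5 were higher and 7 were lower, 29.3% against 19.6% over all genes tested. FSCN1, the actin-bundling protein fascin, was at 196, 166 and 212 CPM in shAjuba1 and 73.4, 73.3 and 108 CPM in shAjuba2 (log2 fold change 1.18), and both lines lay above the other lines (19.02 to 52.3 CPM). The small GTPase gene RHOB was higher (1.27), whereas talin (TLN1, -0.94) and the non-muscle myosin heavy chains MYH9 (-0.56) and MYH10 (-0.40) were lower. Actin and contractility DEG numbered 6 without replicate 1 of shAjuba1, 6 without replicate 2 of shAjuba1, 7 without replicate 3 of shAjuba1 and 7 without replicate 1 of shAjuba2. The threshold was missed by COL4A1 in 5 of 13, COL6A2 in 1 of 13, ITGA3 in 4 of 13, MYH9 in 2 of 13 and MYH10 in 5 of 13 alternative fits.

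The Hippo pathway list held 4 higher and 7 lower DEG among 27 tested genes. TEAD1, a DNA-binding partner of YAP and TAZ, was at 389.8, 389.7 and 391 CPM in shAjuba1 and 626, 677 and 615 CPM in shAjuba2 (log2 fold change -0.70 ± 0.11 (SE), adjusted p = 0.00265), and shAjuba1 alone lay below the other lines (496 to 747 CPM). TEAD4, of the same family, was higher by 0.46 on the log2 scale. WWTR1, which encodes TAZ, was at 89.98, 92.6 and 84.8 CPM in shAjuba1 and 56.7, 48.1 and 58.2 CPM in shAjuba2 (log2 fold change 0.72), and YAP1 was at 351, 363 and 335 CPM in shAjuba1 and 336, 279.7 and 340.5 CPM in shAjuba2 (adjusted p = 0.464). WWC1, the adaptor KIBRA, was at 197, 188 and 212 CPM in shAjuba1 and 91.3, 86.7 and 92.1 CPM in shAjuba2 (log2 fold change 1.15 ± 0.11 (SE), adjusted p = 0.000133). Of the kinases and their activators, LATS1 (-0.38), MOB1B (-0.86), MAP4K4 (-0.54) and TAOK3 (-0.46) were lower in shAjuba1. AMOTL1, which binds YAP, was at 97.9, 91.7 and 95.8 CPM in shAjuba1 and 118, 125 and 126 CPM in shAjuba2 (log2 fold change -0.36), above all samples of the other lines in both (0.954 to 56.2 CPM). Its relative AMOT was the reverse between the lines (0.88). Hippo pathway DEG numbered 5 without replicate 1 of shAjuba1, 6 without replicate 2 of shAjuba1, 6 without replicate 3 of shAjuba1, 6 without replicate 1 of shAjuba2 and 17 without replicate 2 of shAjuba2. Over all genes tested the same fits had 2177, 2415, 2428, 2600 and 5961 DEG, against 4232 with all 6 samples.

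Of 24 target genes of YAP and TAZ, 9 were lower and 2 were higher in shAjuba1 (median log2 fold change -0.09), and lower DEG were 4 to 10 in the alternative fits. YAP and TAZ target DEG numbered 6 without replicate 1 of shAjuba1, 6 without replicate 2 of shAjuba1, 6 without replicate 3 of shAjuba1 and 7 without replicate 1 of shAjuba2. NT5E, the ectonucleotidase CD73, was at 28.2, 24.5 and 25.2 CPM in shAjuba1 and 90.1, 74.3 and 103 CPM in shAjuba2 (log2 fold change -1.77 ± 0.14 (SE), adjusted p = 7.49e-05). DLC1, which encodes a GTPase-activating protein, was at 13.5, 14.1 and 15.4 CPM in shAjuba1 and 48.6, 50.05 and 51.5 CPM in shAjuba2 (log2 fold change -1.80 ± 0.11 (SE), adjusted p = 1.73e-05). CCN2, the matricellular protein CTGF, was at 15.6, 13.7 and 17 CPM in shAjuba1 and 20.6, 19.5 and 21.7 CPM in shAjuba2 (log2 fold change -0.41, adjusted p = 0.0431), and AXL, a receptor tyrosine kinase, at 142, 136 and 133 CPM in shAjuba1 and 188, 204 and 185 CPM in shAjuba2 (log2 fold change -0.48). IGFBP3 was higher, at 129, 129 and 125 CPM in shAjuba1 and 46.4, 33.8 and 46.7 CPM in shAjuba2 (log2 fold change 1.60 ± 0.14 (SE), adjusted p = 0.000114), as was the kinase gene NUAK2 (1.34). In 5 of the 9 lower DEG shAjuba2 alone lay above all samples of the other lines. Adjusted p rose past the threshold for TEAD4 in 6 of 13, LATS1 in 6 of 13, MAP4K4 in 1 of 13, TAOK3 in 6 of 13, AMOTL1 in 8 of 13, CCN2 in 7 of 13 and AXL in 4 of 13 alternative fits.

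**Figure D4:**
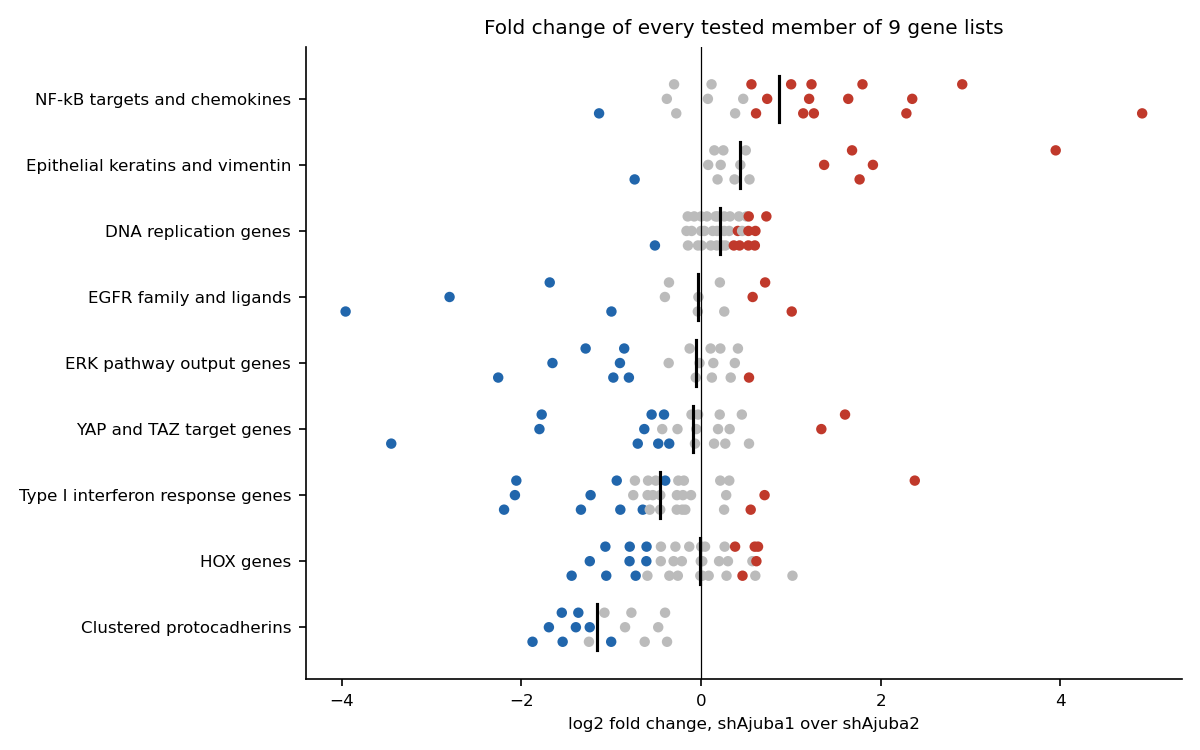
Log2 fold change (shAjuba1 over shAjuba2) of every tested member of 9 gene lists. Each point is 1 gene, red and blue points are higher and lower DEG, grey points did not pass, and black bars are medians. The median was 0.87 for NF-kB targets and -1.16 for clustered protocadherins.

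BMP and TGF-beta signalling held 8 higher and 8 lower DEG among 40 tested genes. GREM1, a secreted antagonist of BMPs, was at 2.58, 2.605 and 2.097 CPM in shAjuba1 and 15.3, 13.9 and 19.7 CPM in shAjuba2 (log2 fold change -2.74 ± 0.18 (SE), adjusted p = 2.54e-05). BMP4, a ligand, was at 261, 249 and 253 CPM in shAjuba1 and 436, 451 and 421 CPM in shAjuba2 (log2 fold change -0.77), whereas BMP2 was at 0.749, 0.594 and 0.763 CPM in shAjuba1 and 0.203, 0.112 and 0.05904 CPM in shAjuba2 (log2 fold change 2.49). The antagonist GREM1 and the ligand BMP4 were thus lower in shAjuba1, and BMP2 was higher. SMAD3, the transducer of TGF-beta, was at 86.98, 86.7 and 97 CPM in shAjuba1 and 45.1, 48.6 and 38.6 CPM in shAjuba2 (log2 fold change 1.04). TGFB2 and TGFB3, ligands, were lower (log2 fold changes -0.55 and -0.91). BMP and TGF-beta DEG numbered 10 without replicate 1 of shAjuba1.

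Wnt feedback and beta-catenin target genes were split, with 5 higher and 5 lower among 25. NOTUM, which inactivates Wnt ligands, was at 69.02, 62.8 and 84.1 CPM in shAjuba1 and 30.5, 24.5 and 18.5 CPM in shAjuba2 (log2 fold change 1.56 ± 0.18 (SE), adjusted p = 0.000487), and TCF7, a nuclear partner of beta-catenin, at 78.3, 71.1 and 83.2 CPM in shAjuba1 and 42.6, 35.2 and 40.4 CPM in shAjuba2 (log2 fold change 0.98). RNF43 was higher as well (0.54), whereas DKK1, a Wnt antagonist, was at 21.5, 21.9 and 18.4 CPM in shAjuba1 and 32.1, 34.8 and 47.96 CPM in shAjuba2 (log2 fold change -0.89) and SOX4 at 113, 114 and 113 CPM in shAjuba1 and 216, 238 and 229 CPM in shAjuba2 (log2 fold change -0.996). In 4 of the 5 lower DEG shAjuba2 alone lay above all other lines. The median log2 fold change of the list was 0.10. Wnt list DEG numbered 16 without replicate 2 of shAjuba2.

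Of 25 Notch genes, 5 were higher and 6 were lower in shAjuba1. JAG1, a ligand, was at 101, 94.98 and 94.2 CPM in shAjuba1 and 47.04, 57.4 and 51.03 CPM in shAjuba2 (log2 fold change 0.91), with both lines above the other lines (15.1 to 36.8 CPM), and DLL1, another ligand, at 2.08, 2.47 and 2.26 CPM in shAjuba1 and 4.86, 5.61 and 3.86 CPM in shAjuba2 (log2 fold change -1.07). The target genes HES1 (-0.54) and HES7 (-1.70) were lower, and the receptors NOTCH1 (0.55) and NOTCH2 (0.36) were higher. Notch DEG numbered 7 without replicate 1 of shAjuba1, 7 without replicate 2 of shAjuba1, 6 without replicate 3 of shAjuba1 and 7 without replicate 1 of shAjuba2. Of these DEG, the threshold was not reached by TGFB2 in 4 of 13, RNF43 in 4 of 13, HES1 in 1 of 13, NOTCH1 in 4 of 13 and NOTCH2 in 8 of 13 alternative fits.

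Of 28 semaphorins, plexins and neuropilins, which guide cells and axons, 8 were higher and 3 were lower in shAjuba1. SEMA3D, a secreted semaphorin, was at 2.83, 3.69 and 2.12 CPM in shAjuba1 and 0.305, 0.179 and 0.394 CPM in shAjuba2 (log2 fold change 3.27 ± 0.31 (SE), adjusted p = 0.000155), and SEMA3F and SEMA3C, of the same class, were higher by 2.05 and 2.03 on the log2 scale. Of their receptors, PLXNA2 (2.33) and NRP2 (0.93) were higher and NRP1 was lower, at 74.3, 72 and 64.2 CPM in shAjuba1 and 118, 137 and 137 CPM in shAjuba2 (log2 fold change -0.89). Of 17 Eph receptors and ephrins 5 were lower and 2 were higher. The ligand gene EFNB2 was at 5.49, 5.51 and 5.802 CPM in shAjuba1 and 13.2, 12.6 and 12.8 CPM in shAjuba2 (log2 fold change -1.19), and the receptor gene EPHB2 at 29.6, 30.6 and 29.4 CPM in shAjuba1 and 22.5, 15.9 and 18.4 CPM in shAjuba2 (log2 fold change 0.67). Eph and ephrin DEG numbered 4 without replicate 1 of shAjuba1, 4 without replicate 2 of shAjuba1, 4 without replicate 3 of shAjuba1 and 4 without replicate 1 of shAjuba2. EPHA2 was at 304, 290.4 and 339 CPM in shAjuba1 and 248, 309 and 251 CPM in shAjuba2 and did not pass (adjusted p = 0.270), but passed without replicate 2 of shAjuba2 (log2 fold change 0.32, adjusted p = 0.0303). 

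HOX genes, which set position along the body axis, moved in both directions. Of 37 tested 5 were higher and 9 were lower, and 7 of the lower DEG lie in the HOXB cluster: HOXB4 to HOXB9 and HOXB13. The other lower DEG were HOXC6 (-1.05) and HOXD4 (-1.24). HOXB13, a hindgut gene, was at 3.51, 3.13 and 2.92 CPM in shAjuba1 and 10.01, 6.95 and 9.17 CPM in shAjuba2 (log2 fold change -1.44 ± 0.18 (SE), adjusted p = 0.000622), and HOXB4 at 81.9, 88.3 and 92.9 CPM in shAjuba1 and 166, 242 and 146 CPM in shAjuba2 (log2 fold change -1.06). HOXB8 was at 79.4, 75.7 and 84.1 CPM in shAjuba1 and 137, 139.6 and 140.3 CPM in shAjuba2 and HOXB9 at 56.5, 53.96 and 61.3 CPM in shAjuba1 and 89.5, 88.7 and 84.7 CPM in shAjuba2 (log2 fold changes -0.79 and -0.61). HOXB2, also of this cluster, was higher, at 23.8, 22.4 and 27.1 CPM in shAjuba1 and 17.4, 18.9 and 17.2 CPM in shAjuba2 (log2 fold change 0.46). The other higher DEG were HOXA9 (0.38), HOXA11 (0.64), HOXD10 (0.60) and HOXD11 (0.62). HOX DEG numbered 7 without replicate 1 of shAjuba1, 8 without replicate 2 of shAjuba1 and 9 without replicate 3 of shAjuba1. Calls were lost for HOXB6 in 4 of 13, HOXD4 in 3 of 13, HOXB2 in 4 of 13, HOXA9 in 6 of 13, HOXA11 in 5 of 13, HOXD10 in 6 of 13 and HOXD11 in 2 of 13 alternative fits.

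Protocadherins of the beta and gamma clusters are cell surface molecules encoded in a row on chromosome 5. Of 53 genes 16 passed the filter on low counts, and of these 8 were lower and none was higher (median log2 fold change -1.16). The filter keeps a gene expressed in only 1 of the lines, so members could pass through shAjuba2, where they were higher. The absence of higher DEG and the median may thus depend in part on the filter. PCDHB13 was at 0.291, 0.495 and 0.327 CPM in shAjuba1 and 1.28, 1.296 and 0.964 CPM in shAjuba2 (log2 fold change -1.69 ± 0.27 (SE), adjusted p = 0.00246) and PCDHB14 at 0.645, 0.8905 and 0.626 CPM in shAjuba1 and 2.14, 1.76 and 1.63 CPM in shAjuba2 (log2 fold change -1.36). PCDHGC3, the most abundant member, was at 13.4, 13.1 and 12.3 CPM in shAjuba1 and 19.5, 13.5 and 17.6 CPM in shAjuba2 and did not pass (adjusted p = 0.112). Over the alternative fits the count was 3 to 13. Protocadherin DEG numbered 4 without replicate 3 of shAjuba1, 3 without replicate 1 of shAjuba2 and 13 without replicate 2 of shAjuba2. These genes share much sequence, so counts could be split between them. 

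Of 33 interferon response genes 9 were lower and 3 were higher in shAjuba1 (median log2 fold change -0.45). They are induced through STAT factors by type I interferon. OAS2, which senses double-stranded RNA, was at 4.78, 3.99 and 4.195 CPM in shAjuba1 and 17.7, 18.6 and 18.1 CPM in shAjuba2 (log2 fold change -2.06 ± 0.13 (SE), adjusted p = 1.90e-05), and shAjuba1 alone lay below the other lines (17.9 to 29.96 CPM). SAMD9 was at 2.33, 2.24 and 2.04 CPM in shAjuba1 and 10.8, 8.78 and 8.42 CPM in shAjuba2 (log2 fold change -2.07 ± 0.16 (SE), adjusted p = 6.29e-05), and OAS1 at 1.39, 1.19 and 1.23 CPM in shAjuba1 and 3.38, 2.81 and 2.83 CPM in shAjuba2 (log2 fold change -1.23). In 6 of the 9 lower DEG shAjuba1 alone lay below all other lines. STAT2, a subunit of the interferon-activated factor, was at 70.9, 67.9 and 75.5 CPM in shAjuba1 and 127, 170.4 and 105 CPM in shAjuba2 (log2 fold change -0.90). RIGI, an RNA sensor, was the reverse, at 13.9, 13.8 and 12.5 CPM in shAjuba1 and 7.57, 8.803 and 8.44 CPM in shAjuba2 (log2 fold change 0.71), as were XAF1 (2.38) and ISG20 (0.55). Without replicate 2 of shAjuba2, 17 were lower and 3 higher. In the list of MHC class I genes, 2 of 19 were higher and none was lower, 10.5% against 19.6% over all genes tested (9.47% higher). They were HLA-B, at 76.8, 73.7 and 70.2 CPM in shAjuba1 and 48.97, 34.8 and 50.6 CPM in shAjuba2 (log2 fold change 0.72), and TAPBP (0.42), which loads peptides. The threshold was missed by ISG20 in 5 of 13 and TAPBP in 5 of 13 alternative fits.

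Of 36 DNA replication genes tested 9 were higher and 1 was lower in shAjuba1, and 26 did not pass (median log2 fold change 0.21). The share of DEG was 27.8%, against 19.6% over all genes tested. RRM2, a subunit of ribonucleotide reductase, was at 451, 451 and 399 CPM in shAjuba1 and 285, 225 and 349 CPM in shAjuba2 (log2 fold change 0.61 ± 0.17 (SE), adjusted p = 0.0317), and E2F1, a transcription factor of the G1 to S transition, at 159, 153 and 186 CPM in shAjuba1 and 103, 130.4 and 97.4 CPM in shAjuba2 (log2 fold change 0.60). MCM6 was higher (0.53) and MCM3, of the same helicase, lower, at 132, 132 and 149 CPM in shAjuba1 and 201, 192 and 201 CPM in shAjuba2 (log2 fold change -0.51). The number of higher DEG was 1 to 14 in the alternative fits, so that it rested on the samples used. DNA replication DEG numbered 1 without replicate 1 of shAjuba1, 2 without replicate 2 of shAjuba1, 3 without replicate 3 of shAjuba1 and 2 without replicate 1 of shAjuba2. Of 35 mitosis genes 2 were higher, KIF23 (0.60) and UBE2C (0.55), and CENPE was lower (-0.53). This share of 8.57% is below the 19.6% over all genes tested. Mitosis DEG numbered 1 without replicate 1 of shAjuba1, 1 without replicate 3 of shAjuba1, 1 without replicate 1 of shAjuba2, 5 without replicate 2 of shAjuba2 and 5 without replicate 3 of shAjuba2. MKI67, a marker of cycling cells, was at 530.5, 520.3 and 518 CPM in shAjuba1 and 581, 586 and 560.4 CPM in shAjuba2 (adjusted p = 0.449).

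Of 26 p53 target genes 4 were higher and 2 were lower, 23.1% against 19.6% over all genes tested. CDKN1A, the cell cycle inhibitor p21, was at 135, 132 and 137 CPM in shAjuba1 and 65.8, 55.97 and 69.3 CPM in shAjuba2 (log2 fold change 1.09 ± 0.12 (SE), adjusted p = 0.000300), above the other lines (53.5 to 87.9 CPM) in shAjuba1. AEN, a nuclease, was at 118, 111 and 125 CPM in shAjuba1 and 53.6, 70.7 and 61.5 CPM in shAjuba2 (log2 fold change 0.94), whereas ZMAT3 (-0.56) and TP53INP1 (-0.94) were lower. DEG among p53 targets numbered 10 without replicate 2 of shAjuba2. Of 31 genes of ATF4 and the unfolded protein response, 7 were higher and 3 were lower. ATF4 itself was at 254, 250.3 and 251 CPM in shAjuba1 and 179, 185 and 192 CPM in shAjuba2 (log2 fold change 0.45), and TRIB3, a target, at 39.5, 33.9 and 39.3 CPM in shAjuba1 and 19.7, 13.4 and 26.2 CPM in shAjuba2 (log2 fold change 0.93). SLC7A11, the cystine transporter subunit and also an ATF4 target, was the reverse, at 19.9, 21.5 and 14.9 CPM in shAjuba1 and 49.1, 50.7 and 58.7 CPM in shAjuba2 (log2 fold change -1.49 ± 0.16 (SE), adjusted p = 0.000247). ATF4 and unfolded protein DEG numbered 5 without replicate 1 of shAjuba1, 5 without replicate 2 of shAjuba1, 5 without replicate 3 of shAjuba1 and 3 without replicate 1 of shAjuba2. Adjusted p rose past the threshold for RRM2 in 5 of 13, E2F1 in 2 of 13, MCM6 in 5 of 13, MCM3 in 2 of 13, UBE2C in 4 of 13, CENPE in 3 of 13, ZMAT3 in 1 of 13, ATF4 in 4 of 13 and TRIB3 in 2 of 13 alternative fits.

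Of 25 genes of cholesterol synthesis and uptake 4 were lower and none was higher in shAjuba1, and of 16 fatty acid synthesis genes 3 were lower and none was higher. Both shares are below the 19.6% over all genes tested. SREBF2, the master regulator of cholesterol synthesis, was at 93.5, 87.2 and 104 CPM in shAjuba1 and 155, 138 and 126 CPM in shAjuba2 (log2 fold change -0.55), and INSIG1, which restrains it, at 19.6, 19.7 and 18.3 CPM in shAjuba1 and 75.3, 30.3 and 48.2 CPM in shAjuba2 (log2 fold change -1.41 ± 0.27 (SE), adjusted p = 0.00623). SREBF1, its counterpart for fatty acids, was at 53.01, 52.5 and 66.3 CPM in shAjuba1 and 132, 106 and 82.3 CPM in shAjuba2 (log2 fold change -0.89). In all 4 lower DEG of cholesterol synthesis and uptake shAjuba1 alone lay below the other lines. Cholesterol DEG numbered 2 without replicate 1 of shAjuba1, 2 without replicate 2 of shAjuba1, 2 without replicate 1 of shAjuba2 and 12 without replicate 2 of shAjuba2. Fatty acid DEG numbered 10 without replicate 2 of shAjuba2 and 5 without replicate 3 of shAjuba2. Without replicate 2 of shAjuba2, 1 fatty acid synthesis gene was higher and 9 were lower. Over all genes tested 26.9% were DEG in that fit. Of these DEG, the threshold was not reached by SREBF2 in 3 of 13 alternative fits.

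Further lists are given by their counts, beside 19.6% DEG over all genes tested. Of 18 markers of colon stem and tumour-initiating cells 3 were higher (MSI1, EPHB2 and MYC) and 2 were lower (ALCAM and SOX2), a share of 27.8%. SOX2, a pluripotency factor, was at 4.91, 4.45 and 4.82 CPM in shAjuba1 and 8.93, 9.898 and 11.2 CPM in shAjuba2 (log2 fold change -1.07). Of 14 genes of the small RNA silencing machinery, which shRNAs use, AGO4 was lower, at 14.02, 14.3 and 14.2 CPM in shAjuba1 and 21.4, 20.7 and 17.4 CPM in shAjuba2 (log2 fold change -0.48), and 13 did not pass. Of 7 LIM proteins of the Ajuba and zyxin families, TRIP6 was lower, at 148, 138 and 158 CPM in shAjuba1 and 187, 199 and 189 CPM in shAjuba2 (log2 fold change -0.36), as was FBLIM1 (-0.48). Hypoxia and glycolysis genes had 2 higher and 1 lower of 29, heat shock and chaperone genes 2 and 1 of 17, and aldehyde dehydrogenases 1 and 1 of 17. Stem cell marker DEG numbered 11 without replicate 2 of shAjuba2. Hypoxia and glycolysis DEG numbered 6 without replicate 2 of shAjuba2 and 9 without replicate 3 of shAjuba2. Calls were lost for ALCAM in 4 of 13, AGO4 in 5 of 13, TRIP6 in 7 of 13 and FBLIM1 in 5 of 13 alternative fits.

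Some groups did not part the lines at the threshold. None of 79 cytosolic ribosomal protein genes, 67 nuclear respiratory chain genes, 13 mitochondrially encoded mRNAs and 7 metallothioneins was a DEG in edgeR's test with all 6 samples. At an unadjusted p under 0.05 there were 7, 9, 0 and 2, and DESeq2 called 1, 3, 0 and 2. With a filter of at least 1 count there were 20, 5, 2 and 2. The medians of these lists were 0.35, 0.20, 0.12 and 0.09, and without replicate 2 of shAjuba2 they were 0.07, -0.02, 0.40 and -0.08. RPS6, one of the ribosomal genes, was at 514, 563 and 519 CPM in shAjuba1 and 476, 144 and 531 CPM in shAjuba2, with that replicate alone far below the rest (adjusted p = 0.404). Without it, 4 ribosomal protein genes (2 higher) and 7 respiratory chain genes (3 higher) were DEG, 9 mitochondrially encoded mRNAs were higher and 2 metallothioneins were lower. Without replicate 3 of shAjuba2, 18 ribosomal protein genes and 12 respiratory chain genes were higher in shAjuba1.

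Genes that differed lay on every chromosome tested, from 158 of 1053 genes on chromosome 16 to 140 of 643 on chromosome 4. Over 295 windows of 10 Mb with at least 10 tested genes, the lowest median log2 fold change was -0.73, in chr19:20000001-30000000 (hg38), where 28 of 46 genes were lower and 2 were higher. This window holds a cluster of genes of zinc finger proteins, most of which carry a KRAB domain and repress transposable elements. Of its 19 tested protein-coding genes named ZNF, 17 were lower in shAjuba1 and none was higher (median log2 fold change -0.92). ZNF714 (chr19:21082159-21125270) was at 40.8, 43.1 and 33.4 CPM in shAjuba1 and 69.97, 74.9 and 76.95 CPM in shAjuba2 (log2 fold change -0.91 ± 0.12 (SE), adjusted p = 0.00110), and ZNF431 (chr19:21142024-21196053) at 31.2, 28.9 and 26.6 CPM in shAjuba1 and 52.5, 58.9 and 58.2 CPM in shAjuba2 (log2 fold change -0.96). ZNF486 (chr19:20167214-20200488) was at 3.27, 3.66 and 3.296 CPM in shAjuba1 and 12.6, 11.2 and 14.5 CPM in shAjuba2 (log2 fold change -1.90 ± 0.15 (SE), adjusted p = 7.09e-05), and ZNF493 (chr19:21397119-21427577) at 5.32, 4.85 and 5.17 CPM in shAjuba1 and 13.9, 16.5 and 13.3 CPM in shAjuba2 (log2 fold change -1.50). For ZNF486 and ZNF493 the shAjuba1 samples lay below all other samples. ZNF492 did not pass (-0.28, adjusted p = 0.256), and ZNF724 had an adjusted p of 0.0580. Summed over the 19 genes, the level was 180.1, 180.6 and 149 CPM in shAjuba1 and 314, 329 and 335 CPM in shAjuba2, beside 223 to 341 CPM in the other lines. Outside the window, 48 of 191 ZNF genes on chromosome 19 were lower and 7 higher (28.8% DEG). On other chromosomes 36 of 230 were lower and 6 higher. Their total of 18.3% DEG was near the 19.6% over all genes tested, but most of these DEG were lower. Over all genes tested 10.1% were lower and 9.47% higher. Reads of near-identical family members could be split between these genes.

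**Figure D5:**
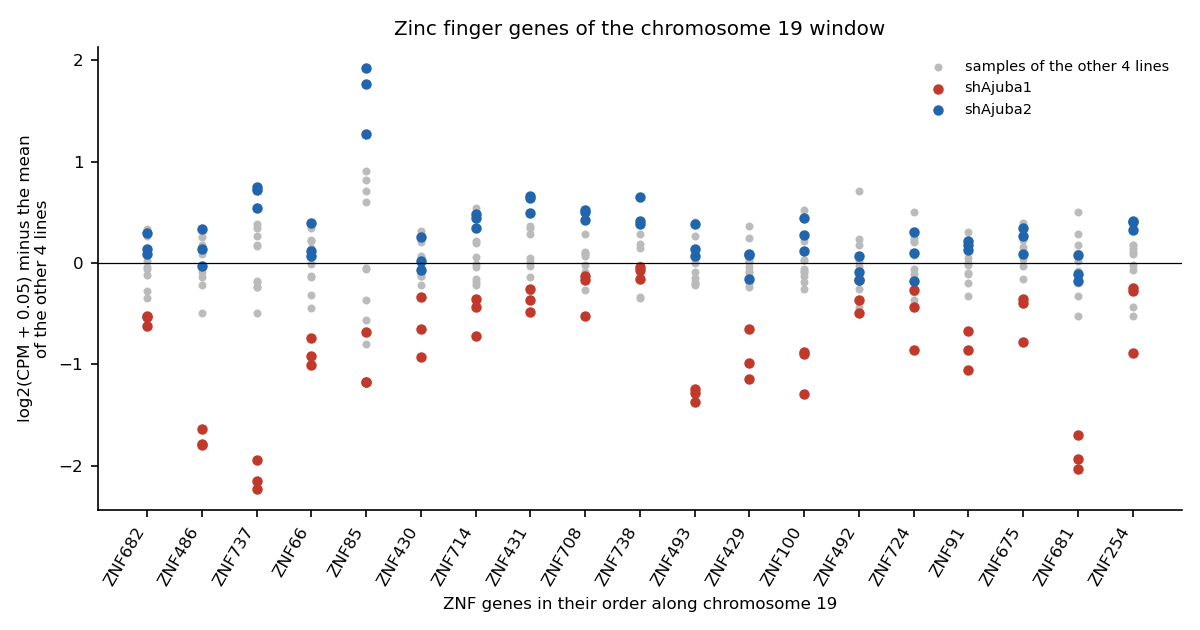
Level of the 19 ZNF genes of the window in every sample, as log2(CPM + 0.05) minus the mean of the 10 samples of the other lines, in their order along chromosome 19. Points are samples, shAjuba1 in red, shAjuba2 in blue and the other 4 lines in grey. For ZNF486, ZNF737, ZNF493 and ZNF681 the shAjuba1 samples lay more than 1 below the mean of the other lines.

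The next lowest medians were -0.63 in chr1:190000001-200000000, where 5 of 12 genes were lower, and -0.57 in chr7:10000001-20000000, where 8 of 20 were lower, ETV1 among them. The highest were 0.37 in chr3:70000001-80000000, 0.23 in chr22:30000001-40000000 and 0.23 in chr5:150000001-160000000. The window of chromosome 3 holds the guidance receptor gene ROBO1, at 9.004, 9.76 and 8.88 CPM in shAjuba1 and 2.91, 2.32 and 3.01 CPM in shAjuba2 (log2 fold change 1.75 ± 0.15 (SE), adjusted p = 0.000106). In the window of chromosome 22, 37 of 167 genes were higher and 6 lower. HMOX1, the haem-degrading enzyme, was the most abundant of its named genes, at 16.5, 14.5 and 14.5 CPM in shAjuba1 and 3.62, 2.703 and 4.09 CPM in shAjuba2 (log2 fold change 2.13 ± 0.17 (SE), adjusted p = 7.49e-05).

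LncRNA genes differed in both directions. UCA1, known from urothelial cancer, was at 7.88, 8.34 and 8.47 CPM in shAjuba1 and 0.773, 1.296 and 0.964 CPM in shAjuba2 (log2 fold change 3.04 ± 0.19 (SE), adjusted p = 2.01e-05). MIR100HG, the host gene of miR-100, let-7a-2 and miR-125b-1, was at 0.749, 1.02 and 0.872 CPM in shAjuba1 and 11.2, 15.1 and 11.4 CPM in shAjuba2 (log2 fold change -3.84 ± 0.20 (SE), adjusted p = 7.07e-06). FAM30A was at 2.33, 3.07 and 3.68 CPM in shAjuba1 and 0.203, 0.223 and 0.118 CPM in shAjuba2 (log2 fold change 4.05), and TARID at 0.374, 0.363 and 0.354 CPM in shAjuba1 and 3.34, 4.11 and 2.15 CPM in shAjuba2 (log2 fold change -3.11). COLCA1, at a colon cancer risk locus, was at 3.95, 4.68 and 3.84 CPM in shAjuba1 and 1.38, 0.961 and 0.689 CPM in shAjuba2 (log2 fold change 2.04). For UCA1, FAM30A and MIR100HG the line with the higher level lay above all samples of the other lines.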

How the data were processed

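Stranded mRNA libraries of SW480 lines were sequenced as 50 bp paired reads. The authors aligned them to GRCh38 with HISAT2, counted read pairs on genes with featureCounts (Rsubread) and deposited raw counts per gene without normalization. Versions of these tools and the annotation release are not given in the sources used here. All columns of the table were assigned to samples by name.

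Samples of shAjuba1 and shAjuba2 were fitted on their own with edgeR 4.0.16 (R 4.3.3, limma 3.58.1): filterByExpr, TMM, quasi-likelihood test, two-sided, Benjamini-Hochberg over all genes tested. The filter keeps a gene with enough counts in 1 line alone, so counts and medians of lists may depend in part on it. The SE is the absolute log2 fold change over the square root of F. Printed CPM use TMM factors over 16 samples. Symbols and positions come from GENCODE 44; 56434 of 66023 genes matched. The test was tested on simulated data. Alternatives were DESeq2 1.42.0, other normalizations and filters, all 16 samples, the replicate number as a block, and each sample left out.

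Named genes follow a rule: genes the study names, the largest fold changes of protein-coding and lncRNA genes with a mean count of at least 100, the largest CPM differences, opposite sides of the other lines, and up to 3 DEG per list, direction and window, of which a selection is given. Further list members were named after their values were seen. The comparison, lists and tests were chosen with earlier results of these data known, and lists are described by counts only. Some results are not reported here. Figures used Python 3.11.15, pandas 2.3.3 and matplotlib 3.10.9.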

Additional observations from a re-analysis of the deposited data

How the results depend on the processing

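The number of DEG was 3678 to 5702 under DESeq2, DESeq2's size factors, library size alone, either other filter or all 16 samples, and 1590 when a difference of 1 on the log2 scale was also asked. The shift of replicate 2 in ribosomal protein and mitochondrially encoded genes was seen in shAjuba2, Control and Ajuba OE and not in shAjuba1. With 1 sample left out it ranged from 2177 to 5961. Same-numbered samples of shAjuba1 and shAjuba2 were not taken as paired: their deviations from the line means correlated at 0.041, -0.052 and -0.047, and 0 of 6 samples correlated best with its own number. With the replicate number as a block there were 2937 DEG, and the log2 fold change of AJUBA was -0.26 (adjusted p = 0.264 in edgeR). AJUBA had a log2 fold change of -0.32 to -0.17 in all alternatives and passed in none. Over 350 genes named by rule or list, 4507 refits gave 3929 with the call and direction kept, 572 without the threshold, 6 with a threshold newly passed and none with a reversed direction. Library size alone gave 1732 higher and 2578 lower DEG. Depth limits genes with few reads, such as CCL2 and ZNF85, whose fold change is not given.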

Other observations

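The genes in this section were chosen after their values were seen. Hedgehog signalling starts with a ligand that binds the receptor PTCH1 and ends in GLI transcription factors, for which GLI1, PTCH1 and HHIP are known targets. Of 16 pathway genes tested, 3 were higher and 4 lower in shAjuba1, 43.8% against 19.6% over all genes tested. Beside the high SHH in shAjuba1, PTCH1 was at 112, 116 and 118 CPM in shAjuba1 and 132, 147 and 119 CPM in shAjuba2 (log2 fold change -0.19, adjusted p = 0.266). HHAT, which acylates the ligand, was lower in shAjuba1, at 7.96, 6.76 and 6.95 CPM in shAjuba1 and 11.2, 11.1 and 12.5 CPM in shAjuba2 (log2 fold change -0.67). GLI3 was at 225, 212 and 224 CPM in shAjuba1 and 309, 269 and 289 CPM in shAjuba2 (log2 fold change -0.38), GLI2 at 17.4, 18.3 and 23.3 CPM in shAjuba1 and 13.2, 13.5 and 12.9 CPM in shAjuba2 (log2 fold change 0.58) and GLI1 at 0.478, 0.561 and 0.654 CPM in shAjuba1 and 0.366, 0.201 and 0.276 CPM in shAjuba2 (log2 fold change 0.99, adjusted p = 0.0489). SHH, GLI1 and GLI2 were thus higher in shAjuba1, and HHAT and GLI3 were lower. The threshold was missed by GLI3 in 7 of 13, GLI2 in 1 of 13 and GLI1 in 9 of 12 alternative fits.

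Of 20 genes best known from myeloid and antigen-presenting cells 14 were tested, of which 9 were higher in shAjuba1, none was lower and 5 did not pass. The share of DEG was 64.3%, against 19.6% over all genes tested. A gene could pass the filter through shAjuba1 alone, so these counts may depend in part on the filter. Of members not tested, SPI1 and HLA-DPB1 had more reads in shAjuba2 and HLA-DRB1 more in shAjuba1. Among those that did not pass, HLA-DMB had a log2 fold change of -0.72 (adjusted p = 0.0539) and CSF1R one of -0.61 (adjusted p = 0.223). ITGAM, the integrin alpha M subunit, was at 2.87, 3.100 and 3.92 CPM in shAjuba1 and 0.366, 0.447 and 0.551 CPM in shAjuba2 (log2 fold change 2.85 ± 0.23 (SE), adjusted p = 6.73e-05), and its partner ITGB2 at 10.8, 10.4 and 12.4 CPM in shAjuba1 and 1.34, 1.59 and 1.397 CPM in shAjuba2 (log2 fold change 2.97). The antisense gene ITGB2-AS1 overlaps ITGB2 with 276% of its count, and strand settings of the counting are not given. ITGAX was at 4.14, 3.496 and 4.28 CPM in shAjuba1 and 1.38, 1.497 and 0.866 CPM in shAjuba2 (log2 fold change 1.68), and CD74, the invariant chain of MHC class II, at 30.5, 30.8 and 31.7 CPM in shAjuba1 and 14.3, 11.8 and 13.3 CPM in shAjuba2 (log2 fold change 1.24 ± 0.12 (SE), adjusted p = 0.000156). The transactivator CIITA was at 4.99, 4.78 and 6.24 CPM in shAjuba1 and 3.398, 4.16 and 2.598 CPM in shAjuba2 (log2 fold change 0.67), beside 5.67 and 7.04 CPM in shScrambled. PTPRC, the leukocyte marker CD45, was at 0 in all 3 shAjuba1 samples, and SPI1 had 4, 6 and 6 reads in shAjuba1 and 14, 20 and 10 in shAjuba2. Adjusted p rose past the threshold for CIITA in 6 of 13 alternative fits.

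Histone genes of chromosome 6 are transcripts that mostly lack a poly(A) tail. Of 45 tested, 10 were lower and 1 was higher in shAjuba1, a share of 24.4% against 19.6% over all genes tested (10.1% lower and 9.47% higher). Their sum was 326, 316 and 200.4 CPM in shAjuba1 and 461, 348 and 486 CPM in shAjuba2, beside 255.4 to 730.8 CPM in the other lines.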
